A study of Mus musculus with 12 samples.

Results

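Immediate early genes are transcribed within minutes of a stimulus, before any new protein is needed, and enzymatic dissociation of tissue is itself such a stimulus. The genes described here are 8 members of this class or of the stress response that accompanies it, namely Egr2, Btg2, Btg1, Atf3, Ier5, Gadd45b, Ptgs2 and Cited2. They were chosen by name, with earlier results of these data known, and their Entrez Gene identifiers were looked up in the deposited count table. All 8 were among the 2398 genes analysed. The cells were oligodendrocytes sorted from dissociated mouse brain for the Ndrg1-EGFP reporter, which labels myelinating oligodendrocytes, and for exclusion of propidium iodide, which enters dead cells. The animals were C57BL/6 mice of postnatal day 60 by the characteristics and 8 weeks by the growth protocol, and every animal carried Ndrg1-EGFP and floxed Lmna on both alleles (Lmna fl/fl). The WT group was Cnp+/+ and the KO group was CnpCre/+, so that Cre came from the oligodendrocyte gene Cnp, and KO cells had 1 intact copy of Cnp fewer as well as Cre. Each genotype had 3 biological replicates, each with 2 libraries, which were summed. The sources used here do not say how many animals went into a replicate. The p-values of the genotype comparison set the difference of KO and WT against the spread between these samples.

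Inducible genes of this kind act at several steps. Egr2 and Atf3 are transcription factors, and Egr2 is also the master regulator of myelination in Schwann cells of peripheral nerve. Cited2 is a co-regulator that binds the acetyltransferases CBP and p300. Btg1 and Btg2 are related antiproliferative proteins that recruit the CCR4-NOT deadenylase to messenger RNA. Gadd45b binds and activates the stress kinase MAP3K4, Ier5 is an immediate early protein linked to heat shock factor activity, and Ptgs2 encodes cyclooxygenase-2, which makes prostaglandin precursors. Between dissection and lysis these cells passed through papain digestion, Percoll centrifugation and sorting, and the sources used here do not give the time each sample spent in those steps.

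The start regions of the 4 genes that ranked the replicates identically (Btg2, Btg1, Atf3 and Gadd45b) and of Egr2, the abundant member with the widest range, are shown because serum and cyclic AMP signals reach many immediate early genes through short elements near the start site. Each window runs from 250 bases before to 50 bases after a RefSeq start site in GRCm38.p6, the assembly also called mm10, on the strand of the gene and from 5′ to 3′. All 8 genes matched the RefSeq promoter table, with 5 start sites for Egr2. Capitals mark matches to the motifs searched, with CGTCA being TGACG read on the other strand. The Egr2 window lies at chr10:67537619-67537918 on the plus strand and holds a CArG box, the element bound by serum response factor, 72 bases before the start, between a pair of matches to the CRE core TGACG. Not all 5 Egr2 windows hold these matches. The window starting at 67535249 held only an E-box, and that starting at 67537316 held a CArG box but no CRE core. The Btg2 window lies at chr1:134079106-134079405 on the minus strand and holds a full CRE, TGACGTCA. The Btg1 window lies at chr10:96616751-96617050 on the plus strand, with CRE cores and a TATA box. The Atf3 window lies at chr1:191183284-191183583 on the minus strand, with a CRE core close to the start. The Gadd45b window lies at chr10:80929841-80930140 on the plus strand and holds an E-box and a TATA box but no CRE core.
Egr2: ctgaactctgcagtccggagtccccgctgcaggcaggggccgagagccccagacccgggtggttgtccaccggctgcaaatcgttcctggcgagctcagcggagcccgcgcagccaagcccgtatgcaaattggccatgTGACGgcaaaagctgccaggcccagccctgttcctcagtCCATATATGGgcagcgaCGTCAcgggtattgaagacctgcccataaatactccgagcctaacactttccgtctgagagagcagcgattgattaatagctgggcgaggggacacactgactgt
Btg2: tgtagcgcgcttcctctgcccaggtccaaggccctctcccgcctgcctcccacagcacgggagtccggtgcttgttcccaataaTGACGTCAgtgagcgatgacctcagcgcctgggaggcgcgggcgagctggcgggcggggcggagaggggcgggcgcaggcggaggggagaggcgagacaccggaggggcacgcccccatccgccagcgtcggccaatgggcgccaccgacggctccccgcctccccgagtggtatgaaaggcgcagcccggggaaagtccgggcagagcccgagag
Btg1: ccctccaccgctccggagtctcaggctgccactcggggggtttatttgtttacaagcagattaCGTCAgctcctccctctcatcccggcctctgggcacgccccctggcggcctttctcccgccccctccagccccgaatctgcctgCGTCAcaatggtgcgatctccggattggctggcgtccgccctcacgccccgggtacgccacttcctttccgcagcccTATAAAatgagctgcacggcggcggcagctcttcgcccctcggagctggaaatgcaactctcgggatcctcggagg
Atf3: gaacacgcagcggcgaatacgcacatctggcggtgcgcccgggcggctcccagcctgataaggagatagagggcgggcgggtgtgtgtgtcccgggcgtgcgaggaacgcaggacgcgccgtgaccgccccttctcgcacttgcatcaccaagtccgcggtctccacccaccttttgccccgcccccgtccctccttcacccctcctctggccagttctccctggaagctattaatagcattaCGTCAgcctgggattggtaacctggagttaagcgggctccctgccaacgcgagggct
Gadd45b: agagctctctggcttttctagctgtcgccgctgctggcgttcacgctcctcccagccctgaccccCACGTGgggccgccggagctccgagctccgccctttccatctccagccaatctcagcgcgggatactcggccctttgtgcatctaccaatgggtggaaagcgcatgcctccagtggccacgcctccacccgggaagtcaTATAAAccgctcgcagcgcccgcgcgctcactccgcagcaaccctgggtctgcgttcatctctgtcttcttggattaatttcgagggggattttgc

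Both strands were searched for 8 motifs in all 32851 windows of the table. The CArG box was in 1.63% of all windows and, among the 8 genes, in windows of Egr2 only. The CRE TGACGTCA was in 1.79% of all windows and in Btg2 only. The core TGACG, which also lies inside the full CRE, was in 20.8% of all windows and in windows of 5 of the 8 genes, Egr2, Btg2, Btg1, Atf3 and Ptgs2. The E-box CACGTG was in 7.15% of windows and in 4 of the genes, Egr2, Gadd45b, Ptgs2 and Cited2, and TATAAA was in 13.6% of windows and in Btg1 and Gadd45b. The AP-1 motif TGACTCA (5.20% of windows), the EGR motif GCGTGGGCG (0.612%) and the heat shock element core GAANNTTC (7.86%) were in none of the windows of the 8 genes. The 8 genes had 12 windows, 5 of them of Egr2, so a count of genes is not on the scale of a share of windows. Of these 12 windows, 7 held TGACG and 4 held CACGTG. The Egr2 windows that start at 67537619, 67537620 and 67537680 overlap and hold the same TGACG matches. The count of 7 thus includes the same bases more than once and cannot be set against the share of all windows. Their content of G and C was 56.0% to 72.0%, against a median of 52.7% over all windows, and its part in the matches was not tested. These are matches of letters in one window per start site and carry no statement on binding.

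The analysed genes come from chromosome 1 and from the first 111.3 Mb of chromosome 10. Their counts ranged from 3694551 to 6093336 per replicate, which is part of each library and not its depth. Lmna and Cnp are not analysed here, so recombination of Lmna was not checked. The defining markers of myelinating oligodendrocytes in the table, Adamts4 and Nfasc, were present in every replicate at 4204 CPM or more, with sums of 10317 to 11898 CPM (WT) and 14778 to 17091 CPM (KO), where CPM is a gene's share of the counts in the analysed genes, brought to a common scale for all replicates. Both markers were higher in every KO than in every WT replicate, with log2 fold changes of 0.51 ± 0.11 (SE) for Adamts4 and 0.43 ± 0.14 for Nfasc, and neither passed the edgeR test (adjusted p = 0.504 and 0.927). Their part in the genotype comparison of the 8 genes was not tested. Over genes with at least 20 counts in a replicate, its 2 libraries differed by 1.00 to 1.06 chi-square units per degree of freedom (chi-square p from 0.0594 to 0.486).

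Egr2 and Atf3, the transcription factors, had the same replicates at the top and the bottom. Egr2 stood at 680 CPM in WT replicate 1, 78.5 CPM in WT replicate 2 and 1315 CPM in WT replicate 3. In KO it stood at 49.8 CPM in replicate 1, 930.1 CPM in replicate 2 and 485 CPM in replicate 3. The genotypes overlapped fully, and each held 1 low replicate that lay far below its other two. The highest replicate was 26.4-fold above the lowest over all 6, 16.8-fold within WT and 18.7-fold within KO. In bulk samples such as these, fewer cells that express a gene and less RNA per cell cannot be told apart. The libraries of 1 replicate lay close together. In WT replicate 3 the libraries gave 3700 and 3605 Egr2 counts, and in KO replicate 1 they gave 76 and 99. Egr2 lies on chromosome 10 from 67534469 to 67542188 and overlaps Gm32255, which was not among the analysed genes, and the sources used here do not say if reads were counted by strand. Atf3, a stress-induced member of the ATF/CREB family on chromosome 1 from 191170296 to 191183333, stood at 121 CPM, 32.8 CPM and 241 CPM in WT replicates 1 to 3. Its KO replicates 1 to 3 stood at 37.0 CPM, 208 CPM and 99.3 CPM. The low replicates were again WT replicate 2 and KO replicate 1, and the highest Atf3 level was 7.36-fold above the lowest.

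**Figure D1:**
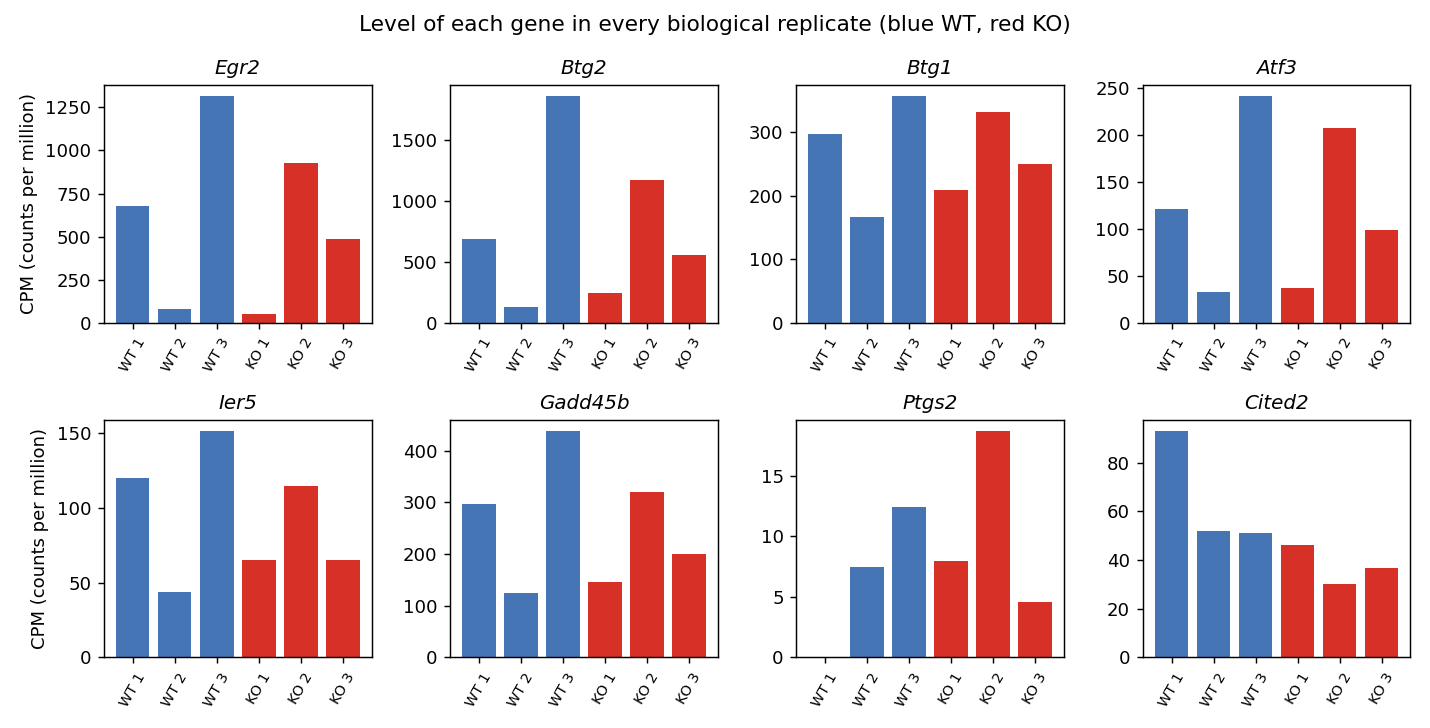
CPM of each of the 8 genes (vertical axes start at 0) in WT (blue) and KO (red) biological replicates 1 to 3, each bar being the sum of 2 libraries. WT replicate 3 has the tallest bar in 6 panels, WT replicate 2 and KO replicate 1 the shortest bars in most of these, and Ptgs2 and Cited2 have other profiles.

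The antiproliferative genes Btg2 and Btg1 followed the same order at different amplitudes. Btg2, on chromosome 1 from 134074865 to 134079155, stood at 684 CPM, 129.9 CPM and 1855 CPM in WT replicates 1 to 3. In KO replicates 1 to 3 it stood at 241 CPM, 1172 CPM and 557 CPM. Its highest level was 14.3-fold above its lowest, both of them in WT, and the KO values all lay between them. Btg1, on chromosome 10 from 96617001 to 96622813, stood at 297 CPM, 166 CPM and 357 CPM in WT replicates 1 to 3. In KO replicates 1 to 3 Btg1 stood at 209 CPM, 332 CPM and 249.7 CPM, and its highest level was 2.15-fold above its lowest. Every replicate held the same rank in Btg1 as in Btg2.

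Ier5 and Gadd45b showed an intermediate amplitude. Gadd45b, on chromosome 10 from 80930091 to 80932204, stood at 296 CPM, 124 CPM and 438 CPM in WT replicates 1 to 3. In KO replicates 1 to 3 it stood at 146 CPM, 321 CPM and 199.6 CPM, a 3.52-fold range over the 6. Ier5, on chromosome 1 from 155096367 to 155099636, stood at 120.1 CPM, 44.0 CPM and 151 CPM in WT replicates 1 to 3. In KO replicates 1 to 3 Ier5 stood at 64.9 CPM, 115 CPM and 65.4 CPM, a 3.44-fold range. For both genes WT replicate 3 was the highest and WT replicate 2 the lowest, and the KO replicates lay within the WT range.

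Ptgs2 and Cited2 had profiles of their own. Ptgs2, on chromosome 1 from 150100031 to 150108234, was the least abundant of the 8. It had 0 counts in WT replicate 1, which allows a level of up to 0.570 CPM at 3 counts, for counting error only. WT replicates 2 and 3 stood at 7.45 CPM and 12.4 CPM, and KO replicates 1 to 3 at 7.97 CPM, 18.7 CPM and 4.55 CPM. The replicate without Ptgs2 counts had the third-highest Egr2 level. Cited2, on chromosome 10 from 17723228 to 17725674, stood at 93.1 CPM, 52.2 CPM and 51.1 CPM in WT replicates 1 to 3 and at 46.1 CPM, 30.2 CPM and 36.6 CPM in KO replicates 1 to 3. Cited2 was the only member of the 8 genes whose genotypes did not overlap, and its KO values were all the lower ones. Replicates did not overlap in 8.49% of the 1484 genes tested, with KO the lower group in 4.04% and the higher in 4.45%. The choroid plexus marker Kcnj13, which encodes a potassium channel, was also highest in the replicate with the most Cited2, WT replicate 1, at 131 CPM against 1.58 to 16.2 CPM in the other 5. Its part in the Cited2 values was not tested.

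Replicates differed more in these genes than in most others. The SD of log2 CPM within genotypes was 2.17 for Egr2, 2.03 for Ptgs2, 1.59 for Btg2, 1.35 for Atf3, 0.77 for Gadd45b, 0.74 for Ier5, 0.47 for Btg1 and 0.41 for Cited2. The median of the 8 was 1.06, against 0.26 over the 1484 genes tested. Low counts raise this SD, and Ptgs2 is a gene of low count. Among the 1108 genes with a mean of at least 20 CPM, Egr2 had the rank 3, Btg2 the rank 8 and Atf3 the rank 15 in this SD, and Cited2 the rank 174. These ranks describe the 6 replicates and carry no test.

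**Figure D2:**
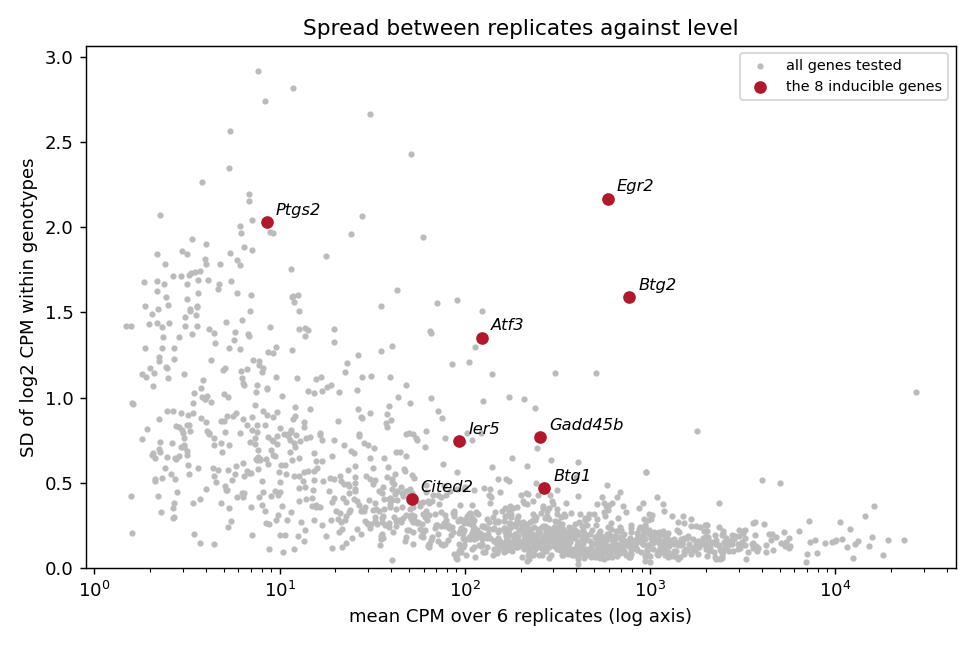
SD of log2 CPM within genotypes (vertical axis) against mean CPM over the 6 replicates (horizontal log axis) for the 1484 genes tested (grey) and the 8 inducible genes (red). Egr2 and Btg2 stand at SD values of 2.17 and 1.59 in a range of level where most genes lie near the bottom of the plot.

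The co-variation of the genes was compared over the 6 replicates in log2 CPM. Btg2, Btg1, Atf3 and Gadd45b ranked the replicates identically, with WT replicate 3 highest, then KO replicate 2, WT replicate 1, KO replicate 3 and KO replicate 1, and WT replicate 2 lowest. Of the 1484 genes tested 8 had this order, 0.539%, and these 4 were among them. Egr2 differed from it only in the exchange of the lowest pair, and Ier5 only in the exchange of KO replicate 2 and WT replicate 1. Egr2 fell into separate clusters, 2 low and 4 high replicates, with the gap between them taking over 0.5 of its log2 range, so no pooled correlation is given for it. The rule on clusters also asked for at least 2 replicates on each side of the gap. Ptgs2 and Cited2 had gaps of 0.650 and 0.516 of their range, each with 1 replicate standing alone, and were kept. This rule was chosen after the values were seen, and Atf3, with a gap of 0.493 of its range, lay just inside it.

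Of the 28 pairs of the 8 genes, 21 do not involve Egr2. The 10 pairs among Btg2, Btg1, Atf3, Ier5 and Gadd45b had a Pearson's r from 0.902 to 0.988. Their exact permutation p over 6 replicates, two-sided, ranged from 0.00139 to 0.00694, and from 0.00648 to 0.0162 after Benjamini-Hochberg adjustment over the 28 pairs. Spearman's rho ranged from 0.943 to 1.00, with an exact permutation p from 0.00278, the smallest that 6 replicates allow for a rank correlation, to 0.0167, and adjusted values from 0.0130 to 0.0333. The closest pair by r was Btg2 with Btg1 (r = 0.988), and the least close Atf3 with Ier5 (r = 0.902). All 10 pairs passed the adjusted threshold of 0.05 for r and for rho. The 5 genes of these pairs were set apart from Cited2 and Ptgs2 with the values known. As 4 of them ranked the replicates identically, the 10 pairs are not independent of each other. The members were also chosen with earlier results of these data known, so these p-values are no independent evidence of co-variation. When the 2 replicates farthest from the median of the first gene of the pair were left out, r over the remaining 4 ranged from 0.770 for Btg2 with Ier5 to 0.999 for Btg2 with Atf3. Taken as deviations from the mean of each genotype, the 10 pairs had r from 0.910 to 0.998. All genes of a replicate come from the same libraries and share their depth. Over all pairs of genes with a mean of at least 20 CPM the median r was 0.0028, and 0.994% of those pairs reached an r of 0.9. The labels give no sorting date or sequencing batch, so no value within batches can be given.

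Neither Cited2 nor Ptgs2 passed the threshold with any of these genes. With Btg2, Btg1, Atf3, Ier5 and Gadd45b, Cited2 had r from -0.13 to 0.17 (exact permutation p from 0.778 to 0.944, adjusted p = 0.983) and rho from -0.20 to 0.086 (exact permutation p from 0.714 to 0.919, adjusted from 0.7996 to 0.919). Without the 2 replicates farthest in the other gene, which never included WT replicate 1, the r of Cited2 ranged from -0.24 to 0.35. With the same 5 genes, Ptgs2 had r from -0.11 to 0.081 (exact permutation p from 0.892 to 0.983, adjusted p = 0.983) and rho from 0.14 to 0.43 (exact permutation p from 0.419 to 0.803, adjusted from 0.587 to 0.865). Without the 2 replicates farthest in the other gene, the r of Ptgs2 ranged from -0.35 to 0.65. Those left out never included WT replicate 1, where 0 counts of Ptgs2 gave a log2 CPM of -1.30, set by the prior count. The other replicates stood at 2.31 to 4.25, so r with Ptgs2 leans on that value, and this check cannot show how far. WT replicate 1 had 0 counts of Ptgs2 and the highest Cited2 level. Ptgs2 with Cited2 gave r = -0.84 (exact permutation p = 0.0514, adjusted p = 0.0899) and rho = -0.60 (exact permutation p = 0.242, adjusted p = 0.423), and r = 0.83 without WT replicate 1 and KO replicate 2, so its sign rested on those replicates.

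Genes with the most similar profile were ranked by their Pearson's r to the mean standardised log2 CPM of the 8 genes, over the 6 replicates and 114 genes with a mean of at least 20 CPM and an SD of at least 0.5. As a description with no test, the highest among genes outside the 8 were Arfgef3 (r = 0.961) and Rgs2 (r = 0.956). Rgs2 encodes an inducible inhibitor of Gq signalling and stood at 98.6 CPM, 44.5 CPM and 156 CPM in WT replicates 1 to 3 and at 74.0 CPM, 138.0 CPM and 74.5 CPM in KO replicates 1 to 3. The next were 6030407O03Rik, Plcd4, Colgalt2, Rgs16, Mfsd4b1 and Mgst3, with r from 0.932 down to 0.841. Rgs16, another regulator of G protein signalling, ranged from 7.69 CPM in KO replicate 1 to 69.0 CPM in KO replicate 2. The 4 most opposed genes were Prg4 (r = -0.96), Perp (r = -0.91), Pawr (r = -0.90) and Slc9a2 (r = -0.88). Prg4, which encodes the lubricating proteoglycan lubricin, stood at 157 CPM in WT replicate 2 and 107 CPM in KO replicate 1 and at 4.68 CPM in WT replicate 3. Perp, a desmosomal protein and p53 target, stood at 207 CPM and 313 CPM in WT replicate 2 and KO replicate 1, and at 24.1 CPM in WT replicate 3. The replicates with the least Egr2 were thus those with the most of both. For single genes the closest partner was itself among the 8 for all but Ptgs2 and Cited2, whose closest were Hjurp (r = 0.833) and Kcnj13 (r = 0.929).

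**Figure D3:**
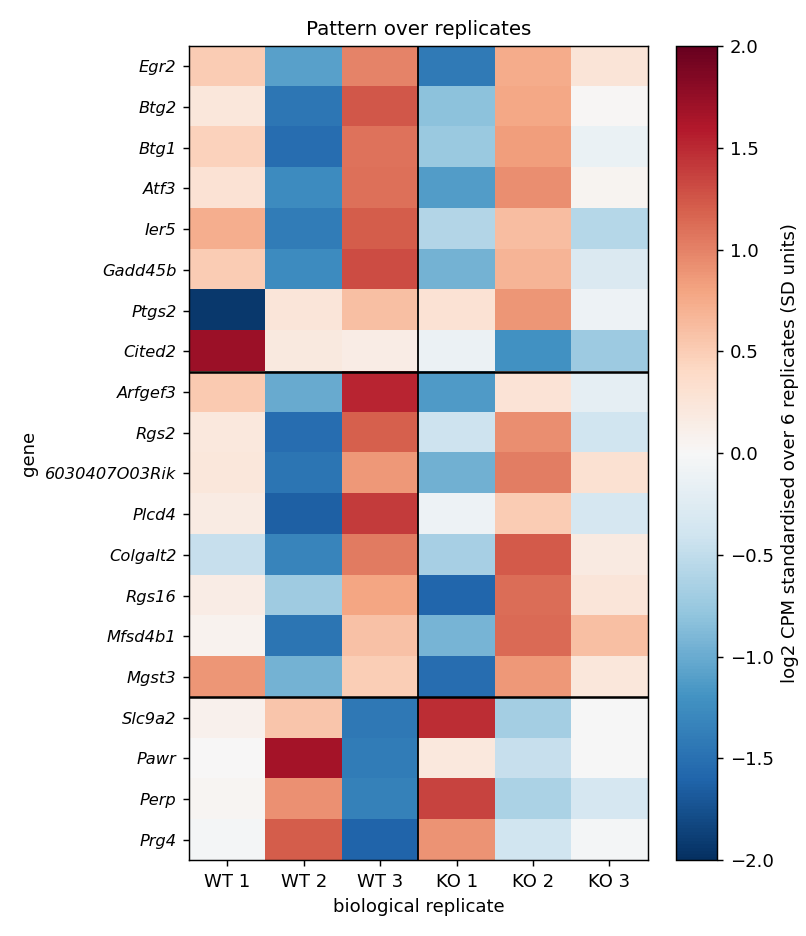
Log2 CPM standardised over the 6 replicates (colour, in SD units) for the 8 inducible genes (top block), the 8 genes most alike (middle) and the 4 most opposed (bottom), in WT and KO replicates 1 to 3. WT replicate 2 and KO replicate 1 are blue in the top rows and red in the bottom block. In the top block, Ptgs2 departs from the other rows at WT replicate 1 and Cited2 at KO replicate 2, where each has its lowest value.

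Other properties of the replicates were set beside this order, and followed it in part. The total counts in the analysed genes were 5191906, 4155727 and 5307025 in WT replicates 1 to 3 and 3694551, 6093336 and 4901307 in KO replicates 1 to 3. The replicates with the lowest totals, KO replicate 1 and WT replicate 2, were those with the least Egr2, and the order of the totals differed from that of Egr2 only in the exchange of KO replicate 2 and WT replicate 3. The 10 most abundant genes took 19.8% and 20.5% of the counts in WT replicate 2 and KO replicate 1 and 15.9% to 17.0% in the other 4. Sgk1, a glucocorticoid-inducible kinase and the most abundant of the analysed genes, stood at 46207 CPM in WT replicate 2 and 45887 CPM in KO replicate 1. Its counts are part of the share just given for these replicates. Next came WT replicate 3, the top of the order, at 30353 CPM. WT replicate 1, KO replicate 2 and KO replicate 3 stood at 10429, 13199 and 17093 CPM, so Sgk1 did not reverse the order throughout. The part of depth, of Sgk1 or of the sample preparation in the order was not tested.

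**Figure D4:**
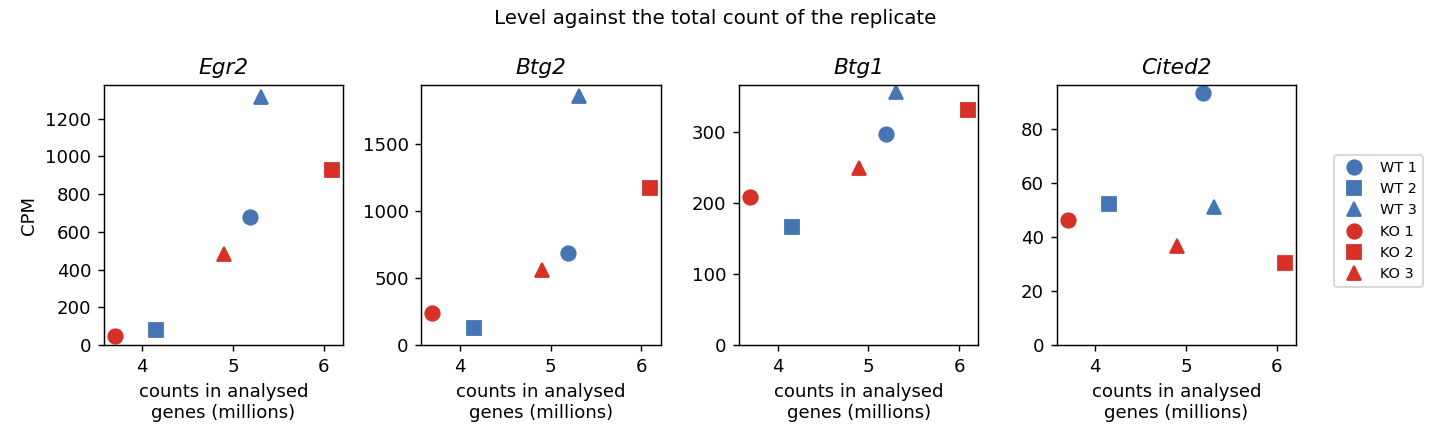
CPM of Egr2, Btg2, Btg1 and Cited2 (vertical axes start at 0) against the total count of each replicate in the analysed genes (horizontal axis), WT in blue and KO in red. KO replicate 1 and WT replicate 2 have the lowest totals and the lowest Egr2, Btg2 and Btg1 levels, and Cited2 does not follow the totals.

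Markers of other cell types were set beside the order, since microglia, neurons and Schwann cells can use some of these genes. The Schwann cell marker Cdh19 spanned 650.2 to 859 CPM (WT) and 695 to 910.3 CPM (KO). Of 16 microglia and macrophage markers, 6 were in the table, and their summed level spanned 96.6 to 184 CPM (WT) and 91.8 to 400.4 CPM (KO). All 6, among them Fcer1g at 136 CPM, Ptprc at 106 CPM and Fcgr3 at 89.9 CPM, were highest in KO replicate 2, which ranked second in Egr2. In WT replicate 3, with the most Egr2, that sum was 119.5 CPM, and it was 229 CPM in KO replicate 1, with the least. Of 8 neuronal markers, 3 were in the table and had sums of 19.2 to 252 CPM (WT) and 16.1 to 67.9 CPM (KO). Scg2 at 225.7 CPM and Syt1 at 21.6 CPM were highest in WT replicate 3, and Rgs4 at 21.0 CPM in KO replicate 2. Syt1 was next highest in KO replicate 2, at 10.1 CPM, and lowest in KO replicate 1 and WT replicate 2, at 3.70 and 2.73 CPM. Pearson's r to the mean standardised log2 CPM of the 8 genes was 0.894 for Syt1, 0.443 for Scg2 and -0.26 for Rgs4. Of the astrocyte markers, Gja1 was highest in KO replicate 1, at 736 CPM, and Gpr37l1 in KO replicate 2, at 442 CPM. Of 11 markers of mural cells and fibroblasts, 8 were in the table and had sums of 845 to 1068 CPM (WT) and 1001 to 1309 CPM (KO). Members of that list differed in their order. Fn1 and Dcn were highest in KO replicate 1, at 329.7 and 181 CPM, and lowest in WT replicate 3, at 38.5 and 28.8 CPM. Col6a2, the most abundant, was lowest in KO replicate 1, at 397 CPM, and stood at 711 CPM in WT replicate 3 and 845 CPM in KO replicate 2. Of 10 endothelial markers, 3 were in the table and had sums of 25.2 to 58.4 CPM (WT) and 18.4 to 38.2 CPM (KO), with Sele and Selp at 0 in 4 of the replicates. Of 5 choroid plexus and ependymal markers only Kcnj13 was in the table, and of 5 progenitor markers only Tnr. Tnr stood at 6.84, 0.497 and 12.4 CPM in WT replicates 1 to 3 and at 1.42, 25.2 and 8.69 CPM in KO replicates 1 to 3. It was thus lowest in the replicates with the least Egr2 and highest in those with the most, with r = 0.886 to the same mean. The part of these cells in the order was not tested.

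KO was compared with WT in a fit across all 1484 genes tested. None of the 8 genes was called in edgeR's quasi-likelihood test at a Benjamini-Hochberg adjusted p under 0.05, where 0 of the 1484 genes were higher (0%) and 0 were lower (0%) in KO. The adjusted p was 0.994 for each of the 8. Without adjustment, 3.98% of all genes tested passed that threshold in edgeR, and Cited2 was the only member to do so. DESeq2 called 0.473% of the genes with an adjusted p and none of the 8, with a smallest adjusted p of 0.926 among them. The log2 fold change of Cited2, KO over WT, was -0.80 with a 95% interval from -1.53 to -0.068, from means of 65.5 ± 23.9 CPM (WT) and 37.7 ± 8.00 CPM (KO; SD, n = 3). For Cited2 the interval lay below 0 without adjustment, and the edgeR adjusted p was 0.994.

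The other intervals were wide. Egr2 averaged 691 ± 618 CPM over the WT replicates and 488 ± 440.1 CPM over KO (SD, n = 3), for a log2 fold change of -0.50 and a 95% interval from -3.98 to 2.98. Btg2 averaged 889.5 ± 881 CPM over WT and 657 ± 473 CPM over KO, for a log2 fold change of -0.44 and an interval from -3.24 to 2.37. The tightest was Btg1, averaging 273 ± 97.7 CPM over WT and 263 ± 62.5 CPM over KO, for a log2 fold change of -0.054 and an interval from -0.71 to 0.60. The log2 fold change was -0.20 ± 0.87 (SE) for Atf3, -0.36 ± 0.44 for Ier5, -0.36 ± 0.50 for Gadd45b and 0.65 ± 1.21 for Ptgs2. The median of the 8 was -0.36, with 7 below 0, while the median of all genes tested was -0.0064 with 50.5% below 0. Because 6 of these genes ranked the replicates alike or nearly so, their signs are not independent of each other.

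The signs depended on single replicates, most of all on WT replicate 3. Without it the log2 fold change turned to 0.39 for Egr2, 0.71 for Btg2, 0.20 for Btg1, 0.59 for Atf3, 0.0076 for Ier5 and 0.095 for Gadd45b, and 1 of the 8, Cited2, stayed below 0. Without KO replicate 1 it turned to 0.029 for Egr2, 0.084 for Btg1 and 0.21 for Atf3, and 4 of the 8 were below 0. Without KO replicate 2 all 8 were below 0, with -1.35 for Egr2, -1.15 for Btg2 and -0.092 for Ptgs2. Cited2 stayed below 0 in each of the 6 fits without a replicate, between -0.97 and -0.46, the latter without WT replicate 1. No genotype difference of a member passed the adjusted test, and the intervals of Egr2, Btg2, Atf3 and Ptgs2 include changes of more than 2-fold in either direction.

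**Figure D5:**
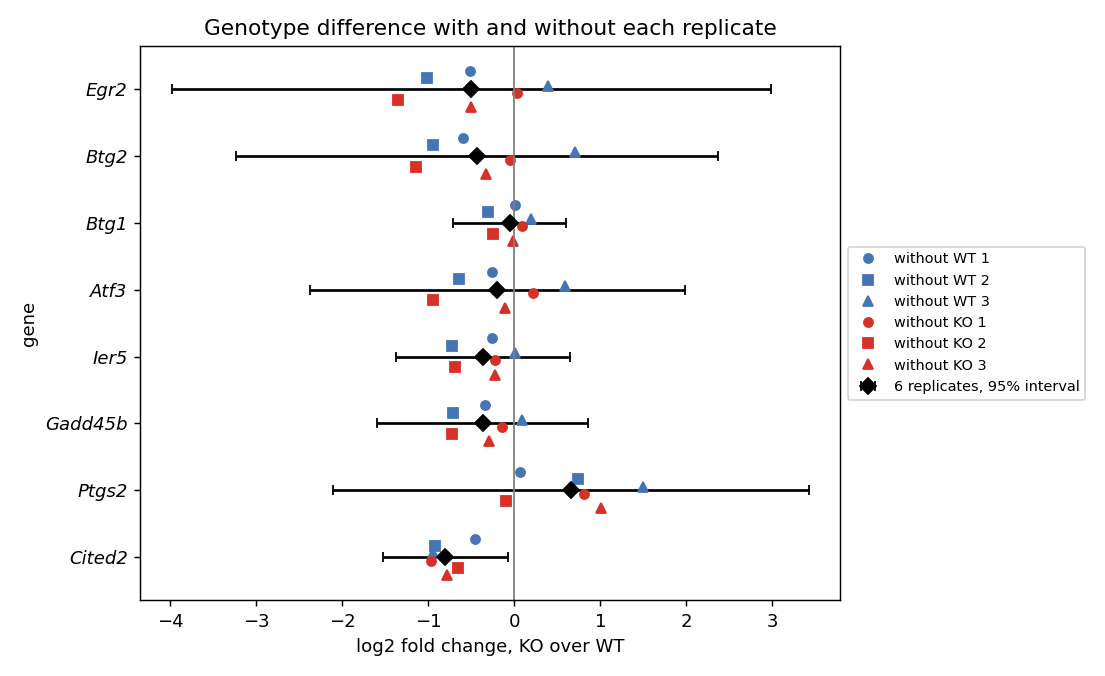
Log2 fold change, KO over WT (horizontal axis), of the 8 genes from all 6 replicates (black diamonds, bars are 95% intervals) and after leaving out WT (blue) or KO (red) replicate 1 (circle), 2 (square) or 3 (triangle). The blue triangles, without WT replicate 3, lie above 0 for all genes but Cited2, whose points all lie below 0.

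Other inducible genes were set beside the 8 in lists written by name. No gene of any list passed the edgeR test at an adjusted p under 0.05 in either direction. Of 45 dissociation-associated genes 8 were tested, 7 of which lay above 0, and their median log2 fold change was 0.11. Slc41a1, a magnesium transporter, had a log2 fold change of 0.0015 ± 0.11 (SE), the chromatin regulator Arid5a 0.0022 ± 0.14, and Nppc, which encodes C-type natriuretic peptide, -0.42 ± 0.15 (edgeR adjusted p = 0.927). Tnfaip3, the inducible inhibitor of NF-kB signalling, ranged from 6.95 CPM in WT replicate 2 to 57.1 CPM in KO replicate 2, and Arid5a only from 273 to 355 CPM. The tested genes of this list did not share 1 profile. Pearson's r to the mean standardised log2 CPM of the 8 genes was 0.91 for Slc41a1, 0.76 for Tnfaip3, 0.64 for Sbno2 and 0.22 for Nppc. It was -0.11 for Tagln2, -0.12 for Arid5a, -0.32 for Nop58 and -0.80 for Ncoa7. Ncoa7 was highest in KO replicate 1, at 108 CPM, and WT replicate 2, at 85.9 CPM. Genes induced by growth factors and calcium had 14 of 27 members tested, 6 below and 8 above 0, and a median of 0.066 that became 0.32 without WT replicate 3. Dusp10, a phosphatase of stress kinases, was highest in KO replicate 1 at 1010.2 CPM and WT replicate 2 at 845 CPM, the replicates with the least Egr2, and its log2 fold change was 0.056 ± 0.23. Nab1, a co-repressor that binds EGR proteins, had a log2 fold change of -0.32 ± 0.27, and the transcriptional regulator Hes6 -0.040 ± 0.13. Of these 14 genes 5, namely Rgs1, Rgs2, Rgs16, Per2 and Tnfaip3, were highest in WT replicate 3 or KO replicate 2, a share of 35.7% against 35.2% of all genes tested. Of the 8 tested dissociation-associated genes 3 were highest in those replicates.

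Glucocorticoid and FoxO inducible genes had 4 of 12 members tested, with a median of -0.21. Sgk1 had a log2 fold change of -0.19 ± 0.70 (SE), Sesn1 -0.22 ± 0.14 and Ddit4, an inhibitor of mTORC1, -0.70 ± 0.41. Ddit4 was highest in WT replicate 3 at 340.4 CPM and lowest in KO replicate 3 at 85.2 CPM. Genes of ATF4 and the unfolded protein response had 4 of 17 members tested and a median of -0.063, with Creg1 at 0.0066 ± 0.16, the sensor Atf6 at -0.059 ± 0.13 and Edem3 at -0.068 ± 0.17. The p53 targets had 4 of 14 members tested and a median of 0.11. Among them Phlda3 had 0.020 ± 0.15, and Perp, described above for its opposed profile, 0.40 ± 1.02. The heat shock and chaperonin list had 2 of 10 members tested, Hspd1 at -0.056 ± 0.17 and Hspe1 at -0.36 ± 0.10, and Hspd1 was highest in WT replicate 2 and KO replicate 1, at 2500 and 2429 CPM. Partners and relatives of the 8 genes had 3 of 30 members tested and a median of 0.0037. Pla2g4a, the phospholipase that releases arachidonic acid for cyclooxygenases, had 0.0037 ± 0.14, averaging 1117 ± 206 CPM over WT and 1120 ± 69.2 CPM over KO (SD, n = 3), and Cnot9, a subunit of CCR4-NOT, 0.052 ± 0.13. Across the 6 replicates Pla2g4a ranged from 923 to 1333 CPM and Cnot9 from 325 to 388 CPM, narrower ranges in fold than those of Ptgs2 and the Btg genes.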

How the data were processed

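The deposited values are the authors' raw read counts for each gene in each library. The submitters' processing notes list CASAVA 1.8.2, fastp, FastQC, featureCounts, HISAT2, DESeq2 1.38.1, SAMtools 1.4.1 and the build mm10, without parameters, annotation or strand use. Of the table, 2398 complete lines were used, and an incomplete last one was not. RefSeq symbols matched 2226 of these identifiers.

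Columns named Ctrl and LmnaKO were taken as WT and KO, and the 2 libraries of a replicate were summed. The main test was edgeR 4.0.16 (R 4.3.3) with TMM scaling, filterByExpr and a robust quasi-likelihood fit, adjusted by Benjamini-Hochberg over 1484 genes. All 8 members passed that filter. SE is the absolute log2 fold change over the square root of F, and log2 CPM used a prior count of 2. Alternatives comprised different size factors and filters, DESeq2 1.42.0, limma-voom (limma 3.58.1), single libraries, a replicate block and fits lacking 1 replicate each.

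Members, lists and rules were chosen with earlier results of these data known. The text names the 8 members, the 3 most abundant tested genes of each list (fewer where fewer were tested), and the genes most like or unlike the members. Any other gene was chosen after its values were seen, and 2 markers are not reported here. Floors of 3 counts cover counting error only, and the 95% intervals of fold changes cover the spread between replicates.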

Additional observations from a re-analysis of the deposited data

How the results depend on the processing

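Counts of 0 genes higher and 0 lower in KO held in edgeR under other size factors, other filters, single libraries, the replicate block and each fit without a replicate (lowest and highest 0), and in limma-voom, with 34 to 86 genes at an unadjusted p under 0.05. DESeq2 called 6 higher and 1 lower, none of them among the 8 genes, and the cause was not tested. No member was called under any alternative, with adjusted p from 0.879 upward. Outside the fits without a replicate, no member changed sign. Without a replicate the log2 fold change ranged from -1.35 to 0.39 for Egr2, -1.15 to 0.71 for Btg2, -0.30 to 0.20 for Btg1, -0.94 to 0.59 for Atf3, -0.72 to 0.0076 for Ier5, -0.72 to 0.095 for Gadd45b, -0.092 to 1.50 for Ptgs2 and -0.97 to -0.46 for Cited2. Btg1 also turned to 0.0072 without WT replicate 1 and to 0.084 without KO replicate 1, where Egr2 turned to 0.029 and Atf3 to 0.21. With the replicate block, the log2 fold change moved to -0.92 for Egr2, 1.42 for Ptgs2 and -0.020 for Btg1, was -0.76 for Cited2, and no call changed. In limma-voom it moved to -0.018 for Btg2, -0.0088 for Btg1, -0.044 for Atf3 and 2.29 for Ptgs2. Library totals alone gave -0.083 for Btg1, the first libraries -0.029 for Btg1 and the second libraries -0.097 for Atf3. Same-numbered replicates had correlated deviations of -0.0032, -0.30 and 0.14, so the numbers were not taken to pair the samples, and the highest correlation across genotypes was 0.35, of KO replicate 1 with WT replicate 2. Of the 21 pairs of members, 10 had an r of at least 0.9, and 8 to 10 under the alternatives, with 8 for the first libraries alone and without WT replicate 2 or WT replicate 3.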
